A study of Rattus norvegicus with 16 samples.

Results

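The genes described here are the activating receptors of natural killer (NK) cells that are not C-type lectins, together with the small membrane adaptors through which such receptors signal. They were chosen by gene symbol: the receptors Ncr1 (NKp46), Ncr3 (NKp30), Cd244 (2B4) and Cd226 (DNAM-1), and the adaptors Tyrobp (DAP12), Hcst (DAP10), Cd247 (CD3 zeta) and Sh2d1b (EAT-2). Of the 8 genes, 7 had a probe on the array, with 8 probes in all. Of these, 6 were among the 18481 genes tested, a set limited to genes that some group showed well above background on both of its arrays. Sh2d1b was matched to no probe and was not analysed here.

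The study profiled sorted cells from female rats aged 15 weeks, taken between 30 and 35 days after immunisation with an autoantigen used to induce autoimmune glomerulonephritis. The strains are spelled Wista Kyoto (WKY) and Lewis (LEW) in the labels. The 16 arrays fall into 8 groups of 2. CD8+ cells, called CD8αα+ in the series text, were split by the class II molecule RT1B into RT1B+ and RT1Blow cells, from WKY blood, LEW blood and WKY glomeruli. The last 2 groups were pan T cells from WKY blood and a group labelled as macrophages from WKY glomeruli. All groups came from immunised rats, so none shows the cells of an untreated animal. Cells were sorted with magnetic beads from Ficoll-separated blood mononuclear cells or from digested glomeruli. Whether 2 arrays of a group stand for separate rats or for pools is not said in the labels, so p-values measure only the spread between these arrays, which may be technical.

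NK cells are held in balance by inhibitory receptors for class I molecules and by activating receptors for ligands on stressed, infected or transformed cells. Most activating receptors have no signalling motif of their own. NKp46 and NKp30 pair within the membrane with CD3 zeta or the Fc receptor gamma chain (Fcer1g), and other receptors pair with DAP12. These adaptors carry the tyrosine motif called ITAM, which recruits the kinases Syk and ZAP-70 once phosphorylated. DAP10 instead carries a YINM motif that recruits phosphoinositide 3-kinase. The receptor 2B4 belongs to the SLAM family, binds CD48 and signals through the small adaptors SAP and EAT-2. DNAM-1 binds the nectin-like molecules CD155 (Pvr) and CD112 (Nectin2). In the rat, NK cells carry CD8α and the lectin receptor NKR-P1A (Klrb1a), and many dendritic and myeloid cells use DAP12 as well.

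The symbol Cd244 now belongs to a neighbouring copy of the gene that the array names so, which is why sequence from both is shown first. Both probes are annotated to a record whose current RefSeq symbol is Cd244l1, with Cd244 and 2B4 among its older names. The next protein-coding gene on chromosome 13 is the paralog now called Cd244, followed by the SLAM family gene Ly9. The promoter windows of RefSeq's GRCr8 assembly run from before to shortly past each start site. Those of the pair could be aligned over 237 bases, of which 236 were identical (99.6%). The stretches printed here are chr13:86552328-86552448 and chr13:86584719-86584839, both before the start and on the plus strand and written 5′ to 3′. The capital marks the single difference, T61C, counted from 1 at the 5′ end with the base of Cd244l1 first.
Cd244l1: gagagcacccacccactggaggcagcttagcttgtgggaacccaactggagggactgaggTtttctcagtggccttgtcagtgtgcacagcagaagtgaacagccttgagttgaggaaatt
Cd244: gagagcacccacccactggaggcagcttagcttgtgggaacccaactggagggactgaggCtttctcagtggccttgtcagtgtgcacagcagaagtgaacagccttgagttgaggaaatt
These windows describe the genes and do not show which transcript a probe reads, which was not tested. Values given for Cd244 below are those of the probes annotated to Cd244l1.

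Tyrobp and Hcst are direct neighbours on chromosome 1, and Hcst and Cd247 are the measured adaptors with a promoter window in the table. The windows of Hcst (chr1:94806464-94806713, minus strand) and Cd247 (chr13:80576019-80576268, plus strand) are shown because their levels differed little between the CD8+ groups and pan T cells, unlike those of Tyrobp. Capitals mark AGGAAG, a form of the core recognised by ETS family factors, or its reverse complement CTTCCT.
Hcst: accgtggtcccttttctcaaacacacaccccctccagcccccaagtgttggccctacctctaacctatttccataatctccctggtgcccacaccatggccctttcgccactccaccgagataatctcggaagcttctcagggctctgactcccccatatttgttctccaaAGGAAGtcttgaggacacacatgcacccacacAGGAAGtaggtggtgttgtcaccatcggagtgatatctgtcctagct
Cd247: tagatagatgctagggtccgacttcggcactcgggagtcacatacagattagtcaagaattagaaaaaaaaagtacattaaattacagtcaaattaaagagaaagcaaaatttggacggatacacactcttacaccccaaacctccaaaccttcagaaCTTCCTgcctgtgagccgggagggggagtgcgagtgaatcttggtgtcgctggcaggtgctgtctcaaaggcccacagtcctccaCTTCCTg
Both windows, each of 250 bases before the start, hold 2 matches, at 79 and 47 bases before the start in Hcst and at 92 and 7 in Cd247. At least 1 match on either strand was found in 29.5% of all 33469 windows of this length, and at least 2 in 5.76%. The windows of Cd244l1, Cd244, Cd226 and Ncr3 held no AGGAAG match. Another motif, TGTGGT, was also counted. It had 1 match each in Cd226 and Ncr3 and 0 in Hcst, Cd247, Cd244l1 and Cd244. At least 1 TGTGGT match was found in 14.5% of all windows. AGGAAG was chosen after these windows had been read, so its count is a description and says nothing about binding.

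Each level is a log2 signal from which the 75th percentile of gene spots on that array was subtracted, so 0 lies at that percentile, and a level can be compared between arrays but not between probes. Between 57.3 and 68.6% of gene spots were well above background on an array, and no spot was saturated. Of 15 tested NK cell markers, 13 or 14 were higher than in pan T cells in each CD8+ group compared, and their summed level was 8.96 to 9.91 on the 12 CD8+ arrays against 6.25 and 6.74 on the pan T arrays. All 12 tested T cell markers were lower in each of these comparisons, where 16.8 to 28.5% of all genes were called. The pan T label was borne out by Cd3e, at 2.18 and 2.64 on its arrays and no higher than 0.15 on any CD8+ array. Glomerular RT1Blow array 2 went against its label, with RT1-Bb at 3.16 where the glomerular RT1B+ arrays had 2.45 and 2.54. The arrays labelled as macrophages carry array names that read pan T. They had Cd14 at 3.77 and 3.31 and Cd68 at 4.42 and 3.38, while Cd163 did not stand well above background there, and the summed level of 13 kidney markers was 5.99 and 6.29 against at most 2.09 elsewhere. WKY blood CD8+ and all LEW arrays lay on one slide and the other groups on a second slide. The RT1B gates lay in different slide columns, so slide and tissue, and column and gate, cannot be told apart. On the first slide LEW arrays lay in row 1 and WKY arrays in row 2, so strain and row cannot be told apart either. On the second slide glomerular CD8+ arrays lay in row 1, and pan T and macrophage-labelled arrays in row 2.

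Ncr1, which encodes NKp46, the receptor that marks NK cells across mammals, was above background on all 16 arrays. Its level was 2.58 and 2.48 in WKY blood RT1B+ cells, 2.54 and 2.74 in WKY blood RT1Blow cells, 1.85 and 2.07 in LEW blood RT1B+ cells, and 2.25 on both LEW blood RT1Blow arrays. In glomeruli it was 0.83 and 0.17 in RT1B+ cells and 1.83 and 0.56 in RT1Blow cells. Pan T cells had -3.61 and -1.58, and the macrophage-labelled arrays -3.38 and -3.70. The blood CD8+ arrays were the highest, and every glomerular CD8+ array lay below every blood CD8+ array, by a narrow gap (1.83 against 1.85). All 12 CD8+ arrays lay above the 4 others. In 2-group comparisons, 56.2% and 64.1% of all genes did not overlap between glomeruli and WKY blood in RT1B+ and RT1Blow cells. Against pan T cells 58.7 to 71.1% did not overlap. Between glomerular CD8+ cells and macrophage-labelled arrays 74.6% and 72.5% did not. The pan T arrays stood furthest apart, with an SD of 1.43, followed by glomerular RT1Blow cells with 0.90.

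Cd244 followed a similar order at the brighter of its probes, which serves as the gene's value. The level was 0.94 and 0.67 in WKY blood RT1B+ cells, 0.71 and 0.91 in WKY blood RT1Blow cells, 0.99 and 1.43 in LEW blood RT1B+ cells, and 1.40 and 1.26 in LEW blood RT1Blow cells. Glomerular RT1B+ cells had -1.55 and -1.83, glomerular RT1Blow cells -0.03 and -1.33, pan T cells -3.36 and -2.05, and the macrophage-labelled arrays -3.18 and -3.46. Blood CD8+ arrays again lay above all glomerular CD8+ arrays, and those above both pan T arrays. The shares of all genes that did not overlap, given for Ncr1, apply here too. At the second probe the level was -2.15 and -2.93 in WKY blood RT1B+ cells, -2.52 and -2.43 in WKY blood RT1Blow cells, -1.36 and -0.84 in LEW blood RT1B+ cells, and -0.66 and -0.96 in LEW blood RT1Blow cells. Glomerular cells had -5.01 and -5.24 in the RT1B+ group and -3.79 and -5.17 in the RT1Blow group, while pan T cells, at -5.68 and -5.32, and macrophage-labelled cells, at -6.72 and -6.85, were not well above background. Both probes place blood above glomeruli, and at both all 4 LEW arrays lay above all 4 WKY blood CD8+ arrays. The gap was narrow at the first (0.99 against 0.94) and wider at the second. Between strains 35.4% of all genes did not overlap in RT1B+ cells and 57.6% in RT1Blow cells. These shares are for 2 arrays against 2 within a gate, and the share for 4 against 4 was not computed.

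**Figure D1:**
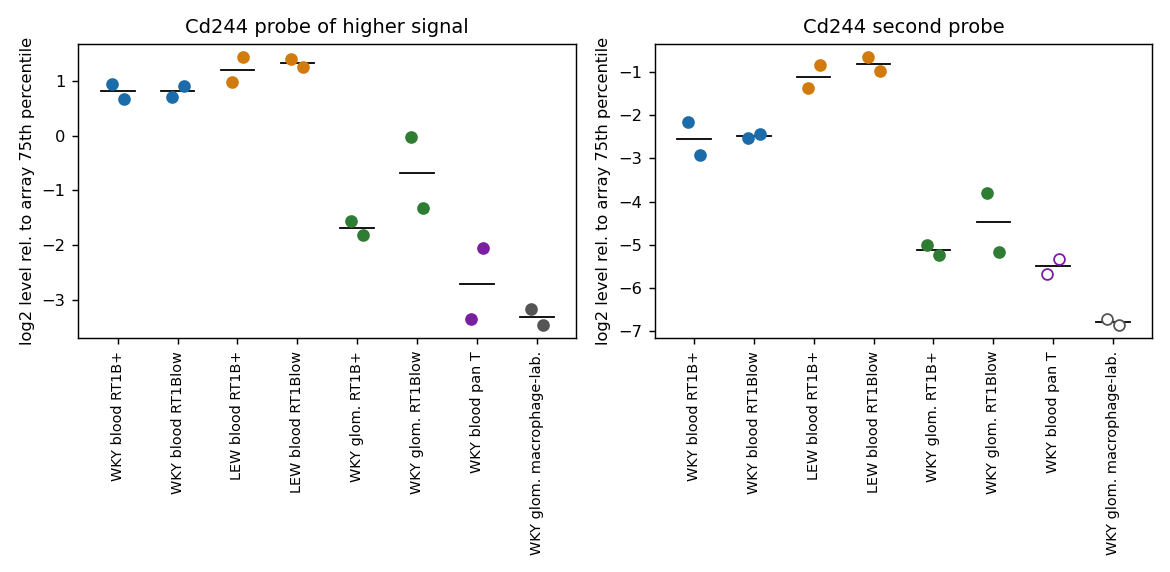
Level of the 2 Cd244 probes on each of the 16 arrays (log2 relative to the array's 75th percentile), by group. Filled dots are arrays on which the probe was well above background, open dots those where it was not, and lines are group means. Blood CD8+ groups lie highest at both probes, and the pan T and macrophage-labelled arrays are open at the second probe.

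Cd226 encodes DNAM-1, which T cells as well as NK cells carry, and its levels were spread over a narrower range. It was at -1.75 and -2.56 in WKY blood RT1B+ cells, -1.93 and -2.21 in WKY blood RT1Blow cells, -1.54 and -2.36 in LEW blood RT1B+ cells, and -1.84 and -2.23 in LEW blood RT1Blow cells. Glomerular RT1B+ cells had -1.53 and -0.93, glomerular RT1Blow cells -0.71 and -1.68, pan T cells -2.32 and -2.51, and macrophage-labelled cells -3.70 and -4.47. The order thus differs from that of Ncr1: the glomerular CD8+ groups had the highest means, the 4 blood CD8+ groups overlapped each other, and only the macrophage-labelled arrays stood clearly below. Ncr3, the gene of NKp30, ranged from -8.77 to -5.71 and was well above background on 3 of 16 arrays, 1 each of WKY blood RT1B+, LEW blood RT1Blow and glomerular RT1B+ cells. No group had it above background on both arrays, so it was not tested.

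Tyrobp, whose DAP12 product serves NK and myeloid receptors alike, spanned a narrower range over the CD8+ arrays than any other tested member. Its level was 7.26 and 7.17 in WKY blood RT1B+ cells, 7.43 and 7.37 in WKY blood RT1Blow cells, 7.53 and 7.31 in LEW blood RT1B+ cells, and 7.65 and 7.69 in LEW blood RT1Blow cells. Glomerular RT1B+ cells had 7.20 and 7.59, and glomerular RT1Blow cells 7.97 and 7.79. Glomerular and WKY blood arrays overlapped in the RT1B+ gate. They did not in the RT1Blow gate, where 64.1% of all genes did not overlap either. Pan T cells, at 3.35 and 4.39, and macrophage-labelled cells, at 6.42 and 5.71, lay below every CD8+ array. For these comparisons too, the shares of all genes that did not overlap are those given for Ncr1.

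Hcst, the gene of DAP10, was at 6.09 and 5.46 in WKY blood RT1B+ cells, 5.85 and 5.79 in WKY blood RT1Blow cells, 5.51 and 5.40 in LEW blood RT1B+ cells, and 5.49 and 5.62 in LEW blood RT1Blow cells. It was at 5.34 and 5.57 in glomerular RT1B+ cells, 6.27 and 5.73 in glomerular RT1Blow cells, 5.18 and 5.10 in pan T cells, and 4.0 and 2.43 in macrophage-labelled cells. In the order of group means each CD8+ group overlapped the next, though not every pair of groups did. The glomerular gates did not overlap each other, nor did WKY and LEW blood RT1Blow cells. Of all genes, 51.8% and 57.6% did not overlap in these comparisons. Pan T cells lay just below the lowest CD8+ array, beside the shares of all genes given for Ncr1.

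Cd247, whose product CD3 zeta belongs to the T cell receptor complex as well as to NKp46, was the one member highest in pan T cells, at 5.70 and 5.79. WKY blood CD8+ cells had 5.67 and 5.30 in the RT1B+ group and 5.41 and 5.45 in the RT1Blow group, and LEW blood cells 5.10 and 5.33 in the RT1B+ group and 4.75 and 5.33 in the RT1Blow group. Glomerular cells had 4.86 and 4.70 in the RT1B+ group and 4.67 and 4.52 in the RT1Blow group, and macrophage-labelled cells had 2.90 and 1.5. Pan T arrays lay just above every CD8+ array, and the macrophage-labelled arrays lay far below, again beside the shares of all genes given for Ncr1.

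**Figure D2:**
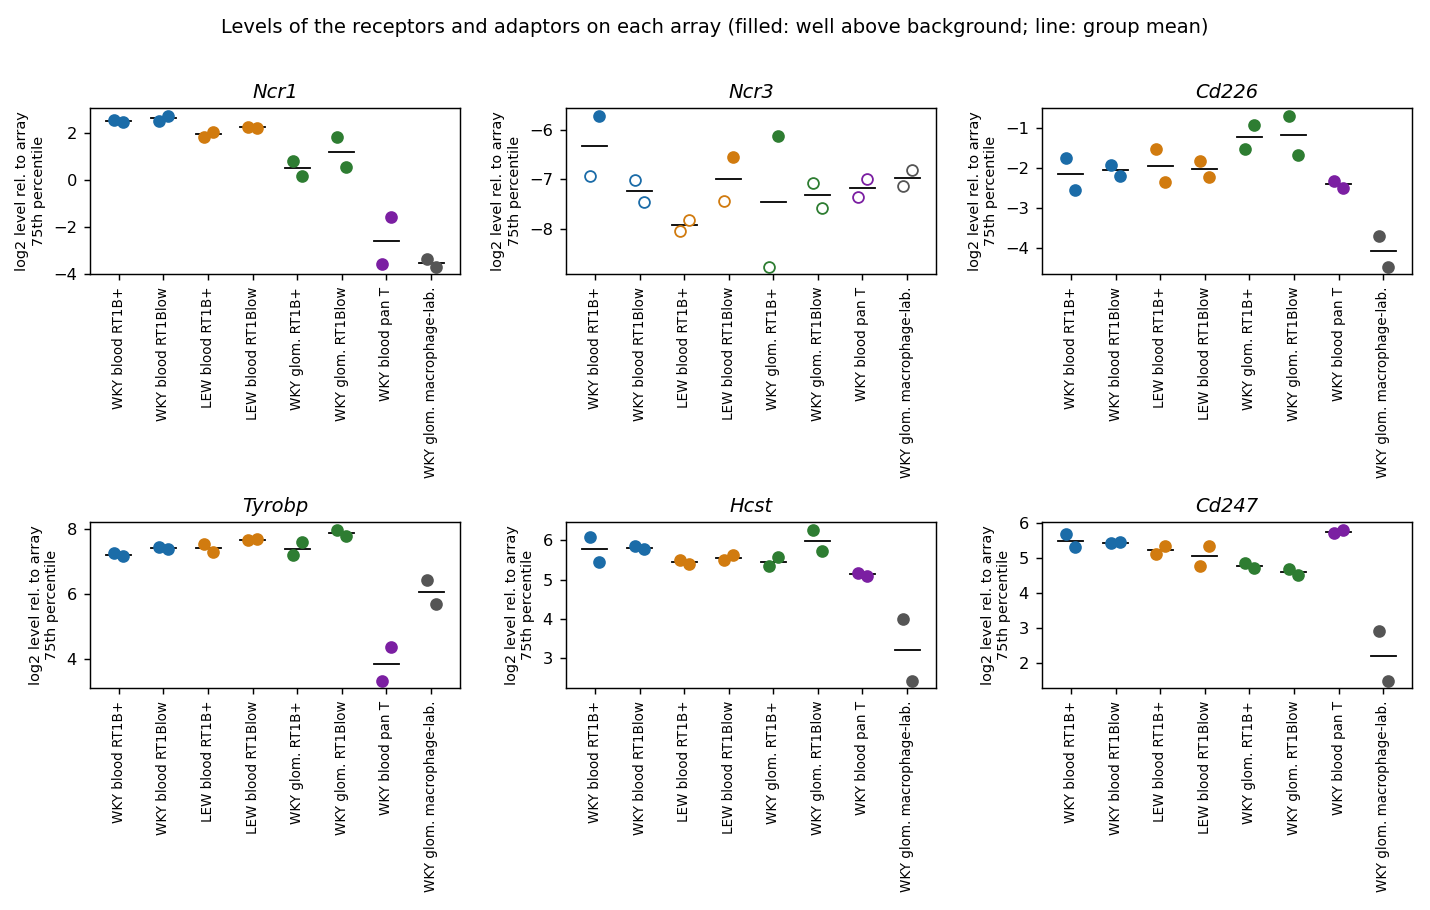
Level of Ncr1, Ncr3, Cd226, Tyrobp, Hcst and Cd247 on each of the 16 arrays (log2 relative to the array's 75th percentile), 1 panel per gene with its own vertical range. Filled dots are arrays on which the probe was well above background and lines are group means. Ncr1 and Tyrobp separate the CD8+ groups from pan T cells, Hcst and Cd247 barely do, and Ncr3 has 3 filled dots.

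The comparison with pan T cells asks how CD8+ cells of blood and glomeruli differ from the general T cell population of the same strain. Ncr1, Tyrobp and, in blood and glomerular RT1Blow cells, Cd244 were higher in the CD8+ cells. Hcst did not pass the test in any of the 4 comparisons. A gene was called when its adjusted p was below 0.05 (limma's moderated test, Benjamini-Hochberg adjustment over all 18481 genes) and its change at least 2-fold, with both arrays of a compared group above background. The 4 comparisons share the same pan T arrays.

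Ncr1 was 5.13 ± 0.56 higher in WKY blood RT1B+ cells on the log2 scale (difference ± SE, n = 2 arrays a group; limma adjusted p = 7.87e-05), a 34.9-fold difference. It was 37.7-fold higher in WKY blood RT1Blow cells (limma adjusted p = 6.66e-05), 8.54-fold in glomerular RT1B+ cells (0.0013) and 13.8-fold in glomerular RT1Blow cells (0.000407). These sizes rest on the pan T arrays: without pan T array 1 the log2 differences in this order were 4.11, 4.22, 2.08 and 2.78, and without array 2 they were 6.14, 6.25, 4.11 and 4.80. Each remained called under every alternative run.

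Cd244 was 11.4-fold higher in both WKY blood groups (log2 difference 3.51 ± 0.45 in each; limma adjusted p = 0.000224 and 0.000212) and 4.07-fold higher in glomerular RT1Blow cells (2.03; 0.00463). The glomerular RT1B+ group had a log2 difference of 1.02 with a 95% interval of 0.03 to 2.0 (limma adjusted p = 0.101), and it reached 1.67 (limma adjusted p = 0.0182) without pan T array 2. Its blood differences were 2.86 without pan T array 1 and 4.17 without array 2, and that of glomerular RT1Blow cells ran from 1.37 to 2.68. At the second probe, whose pan T signal was not well above background and gives only a bound, Cd244 in WKY blood was higher by at least 7.79-fold in the RT1B+ group and at least 8.15-fold in the RT1Blow group, and neither glomerular comparison was called (limma adjusted p = 0.519 and 0.0688).

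Tyrobp was 10.1-fold and 11.6-fold higher in WKY blood RT1B+ and RT1Blow cells, and 11.5-fold and 16.1-fold higher in glomerular RT1B+ and RT1Blow cells. The log2 differences ran from 3.34 to 4.01 with an SE of 0.33, and limma adjusted p-values from 1.19e-05 to 4.43e-05. DAP12 is also a myeloid adaptor. Of 13 tested macrophage and monocyte markers 1, 2, 3 and 6 were called higher in these comparisons, and none lower. Their summed level was 4.82 and 4.87 on the pan T arrays, and it reached from 2.83 to 5.59 in WKY blood CD8+ cells and from 5.49 to 6.77 in glomerular CD8+ cells. The part of these markers in the result was not tested, and in sorted bulk RNA fewer cells of a type and less RNA per cell cannot be told apart.

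Hcst differed from pan T cells by 0.63 in WKY blood RT1B+ cells (95% interval -0.28 to 1.54), and by 0.68, 0.32 and 0.86 on the log2 scale in the other 3 groups. Adjusted limma p-values ran from 0.125 to 0.599, so the intervals leave room for no difference and for more than a doubling. Cd226 differed by 0.26 and 0.35 in WKY blood cells (limma adjusted p = 0.709 and 0.620) and was 2.28-fold and 2.34-fold higher in glomerular RT1B+ and RT1Blow cells (0.0489 and 0.0414). These last calls lie at the threshold: they were lost under 8 and 7 of 16 alternatives, including each time either pan T array was left out. Cd247 was -0.26 and -0.31 in WKY blood cells (limma adjusted p = 0.674 and 0.611) and -0.97 in glomerular RT1B+ cells (0.0656). It was 2.22-fold lower in glomerular RT1Blow cells (log2 difference -1.15; 0.0315), a call lost under 7 of 16 alternatives and whichever of the 4 arrays was left out.

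In WKY blood, 3 of the 6 members were called higher, where 16.8% of all genes tested were called in either direction for RT1B+ cells and 17.6% for RT1Blow cells. In glomerular RT1B+ cells 3 members were called, all higher, against 27.3% of all genes, and in glomerular RT1Blow cells 4 were higher and 1 lower, against 28.5%. The members' median log2 differences were 1.99 and 2.10 in blood and 1.1 and 1.63 in glomeruli, where the medians of all genes were -0.07, 0.02, 0.04 and 0.22. WKY blood and pan T arrays were run on different slides, and the glomerular comparisons lie within one slide, across its rows 1 and 2.

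**Figure D3:**
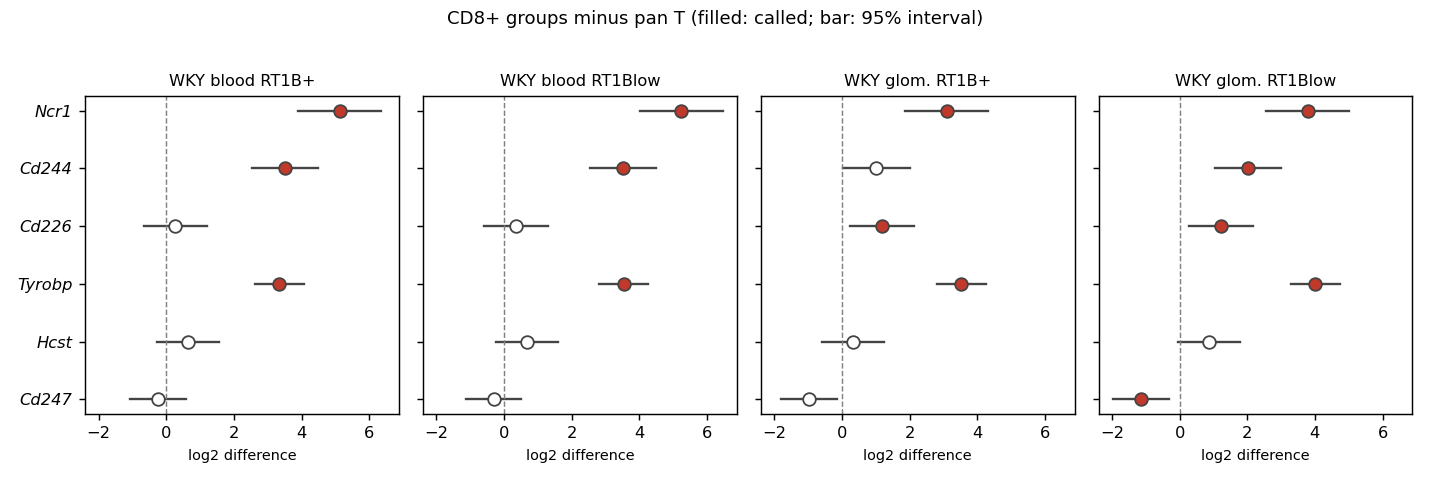
Log2 difference of the 6 tested members from pan T cells in 4 CD8+ groups, with 95% intervals from limma; filled marks are called. Ncr1 and Tyrobp are filled in all 4 groups, Cd244 in 3, Cd226 in the 2 glomerular groups, and the Hcst intervals all include 0.

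The comparison of glomeruli with blood asks how CD8+ cells of one gate differ between the kidney and the circulation. In RT1B+ cells the receptors Ncr1 and Cd244 were lower in glomeruli, while no adaptor was called in either gate. Ncr1 was 4.09-fold lower (log2 difference -2.03 ± 0.56, 95% interval -3.26 to -0.80, n = 2 arrays a group; limma adjusted p = 0.0295). Cd244 was 5.65-fold lower (-2.50 ± 0.45; limma adjusted p = 0.00424), and 6.01-fold lower at its second probe (limma adjusted p = 0.00221). The Cd244 call held under all 15 alternatives, and the Ncr1 call was lost when any of the 4 arrays was left out (limma adjusted p 0.0509 to 0.190).

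In RT1Blow cells Ncr1 differed by -1.44 (limma adjusted p = 0.109) and Cd244 by -1.49 (0.0532) at the first probe and by -2.01 at the second, where it was called (4.02-fold lower; 0.0142). Without glomerular RT1Blow array 1, the array with the higher Ncr1 and Cd244 levels, the first Cd244 probe was called too (-2.14; limma adjusted p = 0.0283). Whether the tissue difference itself differs between gates was tested as an interaction, which was -0.59 ± 0.79 for Ncr1 and -1.01 ± 0.63 for Cd244, and neither was called. The adaptors' differences were smaller: Tyrobp differed by 0.19 and 0.48 in RT1B+ and RT1Blow cells, Hcst by -0.31 and 0.18, and Cd247 by -0.71 and -0.84. Cd226 had the opposite sign, at 0.93 and 0.88, with 95% intervals of -0.01 to 1.87 and -0.06 to 1.82 (limma adjusted p = 0.163 and 0.185).

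Thus 2 of 6 members were called in RT1B+ cells, both lower, where 13.2% of all genes were called, and 0 of 6 in RT1Blow cells, where 9.25% were. In the latter, 3 members had an unadjusted limma p below 0.05. Of 15 NK cell markers, 1 was higher and 1 lower in RT1B+ cells, and 1 was higher in RT1Blow cells. T cell markers moved in RT1Blow cells, with 6 of 12 higher in glomeruli, 0 lower and a summed level of 4.12 to 4.79 there against 3.74 to 4.03 in blood. B cell markers moved in RT1B+ cells, with 6 of 10 lower in glomeruli and a summed level of -1.0 to -0.47 there against 2.44 to 3.03 in blood, and the part of both lists in the result was not tested. Blood and glomerular arrays lay on different slides, so tissue and slide cannot be told apart here.

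The RT1B gate, the subdivision the study sorted on, separated no member beyond the test's threshold. The log2 difference of RT1B+ from RT1Blow cells, as the mean over WKY blood, LEW blood and glomeruli, was -0.36 for Ncr1, -0.38 for Cd244, -0.01 for Cd226, -0.31 for Tyrobp, -0.23 for Hcst and 0.13 for Cd247. None was called, where 0.552% of all genes were, and none had an unadjusted limma p below 0.05. Tyrobp arrays of the 2 gates did not overlap in any of the 3 sources, the RT1B+ mean being 0.19 below in WKY blood, 0.25 in LEW blood and 0.48 in glomeruli, where 30.8, 33.7 and 51.8% of all genes did not overlap. The 95% interval of its mean difference was -0.73 to 0.11 (limma adjusted p = 0.456).

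Within single sources, 0 members were called in WKY blood, LEW blood or glomeruli, against 0.0703, 0.0595 and 0.638% of all genes. The differences of Ncr1 and Cd244 were greatest in glomeruli, at -0.70 and -1.01 (limma adjusted p = 0.234), the latter being the one member with an unadjusted p below 0.05 there. The glomerular RT1Blow group holds the array with RT1-Bb above both RT1B+ arrays. That array had the lower Ncr1 (0.56 against 1.83) and the lower Cd244 (-1.33 against -0.03) of its group. No member was called for a gate difference that differed between strains, or between glomeruli and WKY blood, where 0% and 0.103% of all genes were called. Erythroid and platelet markers moved with the gate, 5 of 7 being lower in RT1B+ cells by the mean of the 3 sources, with summed levels of 0.77 to 5.13 on RT1B+ arrays and 5.83 to 9.30 on RT1Blow arrays. In glomeruli 6 of 10 B cell markers were also lower in RT1B+ cells, with a summed level of -1.0 to -0.47 against 1.27 to 1.49. Their part in the members' values was not tested.

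Between strains, WKY and LEW blood CD8+ cells were compared within each gate, on one slide. The LEW arrays lay in row 1 of that slide and the WKY arrays in row 2, so strain and slide row cannot be told apart. Rats of the WKY strain are known as susceptible to this disease and LEW rats as resistant. No member was called in either gate, where 0.638% of all genes were called for RT1B+ and 0.914% for RT1Blow cells. Ncr1 was 0.57 higher in WKY RT1B+ cells, with a 95% interval of -0.66 to 1.79, and 0.39 higher in RT1Blow cells. Cd247 (0.27 and 0.39) and Hcst (0.32 and 0.26) had the same sign, and Tyrobp (-0.21 and -0.27), Cd226 (-0.20 and -0.04) and Cd244 (-0.40 and -0.52) the opposite one. At the second Cd244 probe the strains stood further apart, WKY being 2.71-fold lower in RT1B+ cells and 3.17-fold lower in RT1Blow cells, and neither passed the test (limma adjusted p = 0.161 and 0.0961). The summed level of 13 macrophage and monocyte markers was 5.30 to 6.99 in LEW RT1B+ cells and 6.64 to 7.13 in LEW RT1Blow cells. In WKY blood it was 2.83 to 5.18 and 5.40 to 5.59. None of these markers was called between strains, and their part in the members' values was not tested.

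**Figure D4:**
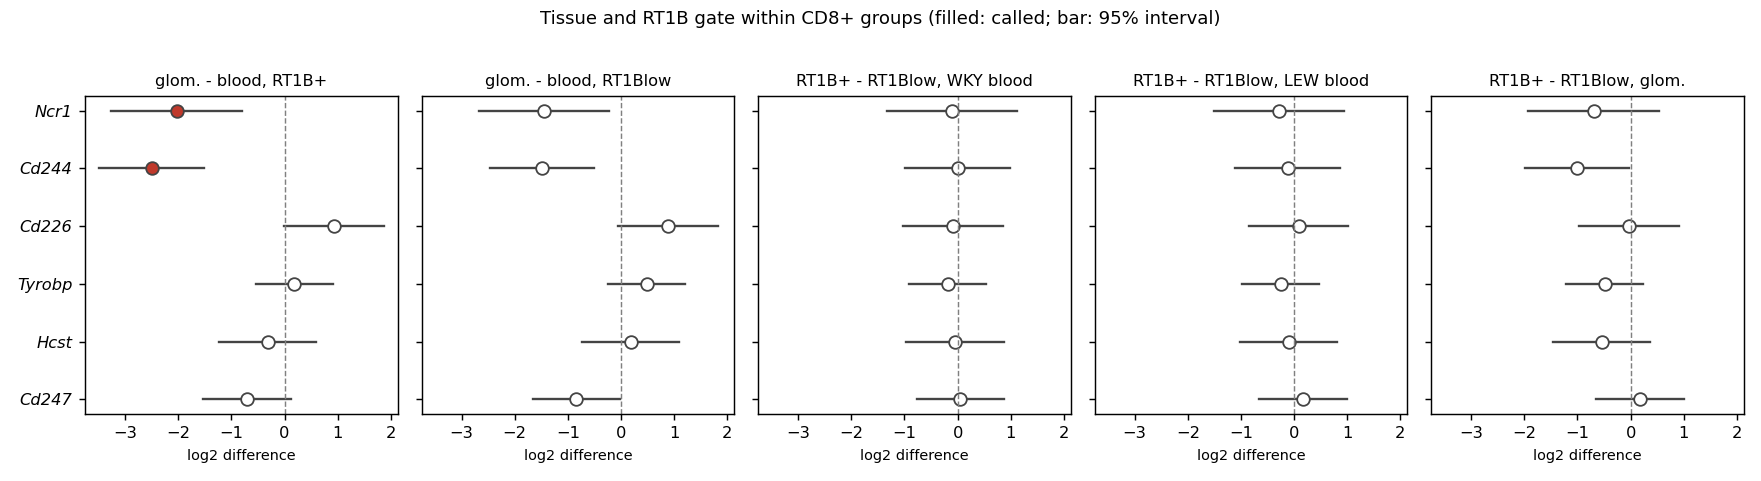
Log2 difference of the 6 tested members with 95% intervals: glomeruli minus WKY blood for each gate, and RT1B+ minus RT1Blow in WKY blood, LEW blood and glomeruli; filled marks are called. Filled marks are confined to Ncr1 and Cd244 in RT1B+ cells of the tissue comparison, and no gate difference is filled, most of the glomerular ones lying below 0.

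The macrophage-labelled glomerular arrays differ from the other groups in how the adaptors relate to each other. Against pan T cells Tyrobp was 4.58-fold higher (log2 difference 2.20; limma adjusted p = 0.000266), while Cd247 was 11.7-fold lower (-3.54; 2.25e-05), Hcst 3.80-fold lower (-1.93; 0.00275) and Cd226 3.17-fold lower (-1.67; 0.00744). Of 6 members 1 was higher and 3 lower, where 37.4% of all genes were called. Ncr1 (-0.95; limma adjusted p = 0.182) and Cd244 (-0.61; 0.281) were not called, and both became so without pan T array 1 and under quantile normalization. The second macrophage-labelled array had the lower Hcst and Cd247 levels: without it their differences were -1.14 and -2.84, without array 1 they were -2.71 and -4.25, and the Cd226 call was lost without array 2 (-1.28; limma adjusted p = 0.0668).

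Glomerular CD8+ cells exceeded the macrophage-labelled arrays in all 6 members in both gates, where 36.4% and 36.1% of all genes were called. Ncr1 was 16.5-fold higher in RT1B+ and 26.7-fold higher in RT1Blow cells, Cd226 7.24-fold and 7.42-fold, and Cd244 3.09-fold and 6.23-fold. Among adaptors, Hcst was 4.73-fold and 6.89-fold higher, Cd247 5.96-fold and 5.25-fold, and Tyrobp 2.52-fold and 3.52-fold. Tyrobp was thus higher in the CD8+ cells than in the arrays labelled as macrophages, although the call for RT1B+ cells (limma adjusted p = 0.00664) was lost without macrophage-labelled array 2 (0.0635) or glomerular RT1B+ array 2 (0.0535), and both gates' calls were lost under quantile normalization and in the deposited matrix. The Cd244 call for RT1B+ cells was lost without macrophage-labelled array 2 (0.0661) or glomerular RT1B+ array 1 (0.0598). Without macrophage-labelled array 2, the log2 differences of Hcst fell to 1.45 and 1.99 and those of Cd247 to 1.87 and 1.69, from 3.03, 3.57, 3.28 and 3.10 without array 1. Kidney marker signal was confined largely to these arrays, and its part in these differences was not tested.

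Downstream of the adaptors, 26 of 29 listed genes of ITAM and YINM signalling were tested, Cbl, Pik3cg and Prkcq being the others. Against pan T cells, 12, 11, 11 and 13 were higher and 2, 2, 3 and 3 lower in WKY blood RT1B+, WKY blood RT1Blow, glomerular RT1B+ and glomerular RT1Blow cells. In these comparisons 16.8, 17.6, 27.3 and 28.5% of all genes were called. The list's median log2 differences, beside the all-gene medians given above, were 0.99, 0.89, 0.69 and 1.0. Syk, the kinase that binds phosphorylated ITAMs, was 26.9, 26.8, 13.7 and 15.6-fold higher, and Lat2, a scaffold that Syk family kinases phosphorylate, 27.1, 27.5, 16.1 and 12.1-fold. Fcer1g, the second partner of NKp46, is counted in this list although it is itself an ITAM adaptor. It was 16.8, 19.8, 9.49 and 15.6-fold higher. Plcg1, the phospholipase used by the T cell receptor, was 18.3, 11.7, 5.35 and 5.23-fold lower. No gene of this list was called between the gates. Between glomeruli and blood 1 was higher and 1 lower in RT1B+ cells (Plcg1, 3.42-fold higher, and Vav2, 2.32-fold lower), and 1 was lower in RT1Blow cells (Pik3cd, 2.85-fold).

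**Figure D5:**
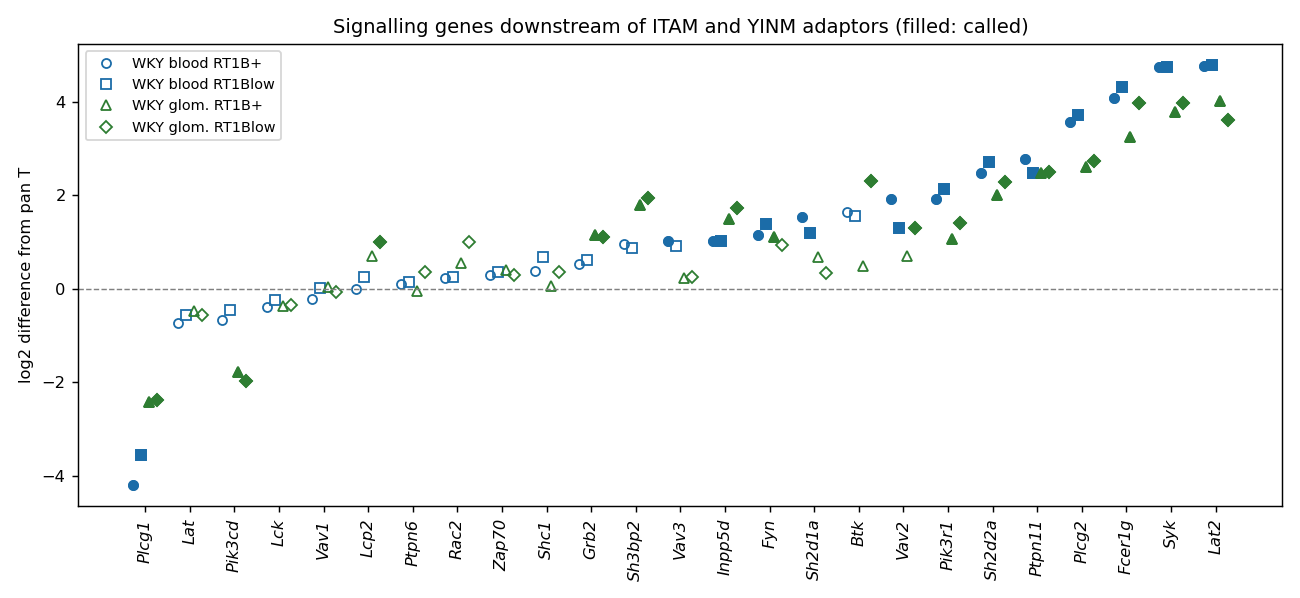
Log2 difference from pan T cells (vertical axis) of 25 genes listed for signalling downstream of ITAM and YINM motifs, in 4 CD8+ groups. Filled marks are called. Fcer1g, on this list, is itself an ITAM adaptor. Syk, Lat2 and Fcer1g lie far to the higher side in all 4 groups and Plcg1 far to the lower side.

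Receptors that use the same adaptors, with Fcgr2b beside them, were described from 2 lists. The first, of receptors that pair with DAP12 or DAP10, also held Clec4d and Clec4e, known instead to use the Fc receptor gamma chain. The median log2 differences of its 10 tested genes from pan T cells were 1.39, 1.56, 1.72 and 2.34 in the same order of groups. Where 16.8, 17.6, 27.3 and 28.5% of all genes were called, 3, 4, 3 and 9 of these genes were higher and 0 lower. They included Klra5, an Ly49 family receptor, at least 10.1, 11.7, 15.0 and 6.90-fold higher, and Klrd1 (CD94), 7.89, 7.39, 3.40 and 5.08-fold higher. In glomerular RT1Blow cells the myeloid receptor Trem2 was 21.1-fold and Trem3 15.4-fold higher, and that group also had 6 of 13 macrophage and 4 of 5 neutrophil markers higher, whose part was not tested. The second list had 6 tested genes: Fcgr3a, Fcgr1a, Fcgr2b, Cd3d, Cd3e and Cd3g. Of them, Fcgr2b is an inhibitory Fc receptor that pairs with neither the Fc receptor gamma chain nor CD3 zeta. Against the same shares of all genes, 2, 2, 2 and 3 of the 6 were higher than in pan T cells and 3 were lower in each group. Their medians were -1.88, -1.82, -1.27 and 0.10. Fcgr3a (CD16), which arms NK cells for antibody-coated targets, was 33.5, 38.4, 29.3 and 47.5-fold higher. Cd3g, a T cell receptor subunit, was 14.9, 68.6, 24.9 and 14.4-fold lower, while Cd247, which encodes a chain of the same complex, changed by 2.22-fold at most.

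Among 7 tested ligands and paired receptors of DNAM-1, NKp30 and 2B4, 2 were higher and 0 lower in each CD8+ group against pan T cells. Of all genes, 16.8, 17.6, 27.3 and 28.5% were called in these comparisons, so the glomerular counts lie near that share. The list's medians were 0.72, 0.38, 0.71 and 0.86, and those of all genes -0.07, 0.02, 0.04 and 0.22. Pvr, the CD155 ligand of DNAM-1, was 3.85-fold and 5.04-fold higher in WKY blood cells and 18.5-fold and 14-fold higher in glomerular cells. Cd96, which shares CD155 with DNAM-1, was 2.33-fold and 2.08-fold higher in the blood groups. Crtam, a receptor for the nectin-like molecule Cadm1 and known to appear on activated cytotoxic cells, was at 2.86 and 3.83 in glomerular RT1B+ cells and at 1.3 and 2.44 in glomerular RT1Blow cells. It was at -3.29 and -4.23 in WKY blood RT1B+ cells, at -2.54 and -3.81 in RT1Blow cells and at -3.45 and -3.64 in pan T cells. Glomerular and blood arrays did not overlap, and the difference was 138-fold in RT1B+ cells (limma adjusted p = 2.7e-05) and 33.1-fold in RT1Blow cells (0.0008). Of all genes, 56.2% and 64.1% did not overlap in these comparisons. Cd226, which belongs to the same receptor group, differed by 0.93 and 0.88 on the log2 scale in these comparisons.

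Members were also set against each other over the 8 group means, as a description in which groups share slides and strains. Ncr1 and Cd244 had a Pearson r of 0.944 over the 8 groups and 0.905 over the 6 CD8+ groups. Ncr1 and Cd226 had 0.66 over 8 groups and -0.94 over the 6 CD8+ groups, Cd226 being highest and Ncr1 lowest in glomeruli among CD8+ cells. Cd247 and Tyrobp had 0.00 over 8 groups and -0.76 over the 6 CD8+ groups. Over the same means, the genes with a symbol most like each member among 11210 candidates were Spint1, Inpp5f and Cdhr1 for Ncr1 (r 0.998, 0.995 and 0.995), Eya2, Arid3c and Kir3dl1 for Cd244 (0.999, 0.995 and 0.994), and Sla, Trim28 and Hnrnph1 for Cd226 (0.994, 0.991 and 0.989). For the adaptors they were Nr4a1, Arsb and Ube2t for Tyrobp (0.995, 0.994 and 0.989), Zfp36l2, Eif1 and Nek7 for Hcst (0.995, 0.992 and 0.989), and Ncor1, Sfxn4 and Zw10 for Cd247 (0.990, 0.989 and 0.987). Between 67 and 131 genes had r above 0.95 with any one member.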

How the data were processed

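RNA from 16 samples was measured on one-colour Agilent arrays. Per the file headers, the deposited scanner files hold spot intensity (the processed signal of Feature Extraction, whose headers give version 11.0.1.1), although the series text describes an Illumina workflow. The authors' deposited value matrix is on a log2 scale with every column's median near the same value, its centring step being not given in the sources used here, and served as an alternative.

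From the intensities, log2 signals minus each array's 75th percentile over non-control spots were computed. Outlier-flagged spots were dropped, replicate spots averaged, and the probe with the highest mean stood for its gene. A probe counted as well above background on an array when at least 0.5 of its kept spots were so flagged. Of 26785 genes, 18481 were tested with limma 3.58.1 in R 4.3.3, all 8 groups in one fit, over 17 comparisons; a bound replaced a fold where a group was not above background. The steps were tested on simulated data. The array number is the only limit on precision that can be given. Alternatives are in the closing section.

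The members and gene lists were chosen with earlier results of these data known. Named besides them were up to 3 called genes per list and comparison with the largest change and no overlap between arrays, with the same genes' values followed through the other comparisons, the 3 genes nearest in pattern, and label-check genes. Markers and alternatives outside that rule were named after their values were seen. One listed signalling gene is counted with its list but not reported here by name.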

Additional observations from a re-analysis of the deposited data

How the results depend on the processing

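No paired analysis was possible because the labels give the arrays no replicate numbers. Over 6 members and 17 comparisons (102 pairs), no called direction reversed under any alternative, and between 94 (quantile normalization) and 102 pairs kept their side of the threshold under each setting that could be run for all pairs. A fit without the macrophage-labelled arrays, chosen after seeing the data, kept 84 of 84. Fits within one slide kept 63 of 66, and leaving out single arrays kept 480 of 504. The other scalings moved the median of all genes by -0.334 to 0.298 on the log2 scale.

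Among the changes in counts of called members were the following. For glomeruli against blood in RT1Blow cells the count rose from 0 to 1 under normexp background correction, quantile normalization, the filter to genes above background on all arrays, the mean of a gene's probes, and trended robust variance, and to 2 with the deposited matrix. All genes called there numbered 1709 in the main setting, 1401, 1571, 1376, 1631 and 1928 under these 5 settings in turn, and 2343 with the matrix. The gene gained was Cd244 except under quantile normalization, where it was Cd247, and the matrix added Cd226. For RT1B+ cells it fell from 2 to 1 with no filter on dim probes (2439 and 1891 genes in all). There the deposited matrix also called Cd226 (log2 difference 1.18, limma adjusted p = 0.0489). The Cd226 call in glomerular RT1B+ cells against pan T was lost under normexp, quantile normalization, no filter on dim probes and only the arrays of the slide. Glomerular RT1B+ against pan T cells gave 5 with the deposited matrix in place of 3 (5056 and 5043 genes in all), and glomerular RT1Blow cells gave 3 in place of 5 with no filter on dim probes, with only the arrays compared and with only the arrays of the slide (4815, 4423 and 4962 genes in all, against 5268). Macrophage-labelled against pan T cells gave 6 in place of 4 under quantile normalization, with Ncr1 and Cd244 added (7794 and 6917 genes in all).

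Leaving out single arrays gave ranges of 2 to 3 for glomerular RT1B+ and 3 to 4 for glomerular RT1Blow cells against pan T, 1 to 1 and 0 to 1 for glomeruli against blood in RT1B+ and RT1Blow cells, 3 to 6 for macrophage-labelled against pan T, and 4 to 6 for glomerular RT1B+ against macrophage-labelled cells. Cd244 in glomerular RT1Blow cells against pan T was not called with only the arrays compared (limma adjusted p = 0.0771). For Ncr3, signal near background on 13 of 16 arrays set the limit.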

Other observations

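Other members of the SLAM family, to which 2B4 belongs, did not change together. WKY blood CD8+ arrays lay on another slide than the glomerular and pan T arrays, so tissue and slide cannot be told apart here. Of 6 tested (Cd84 and Slamf7 were not), 0 were higher and 1 lower than in pan T cells in each WKY blood group, and 3 were higher and 1 lower in each glomerular group. Of all genes, 16.8, 17.6, 27.3 and 28.5% were called. The medians were 0.22 and 0.28 in blood and 1.28 and 1.31 in glomeruli on the log2 scale, beside -0.07, 0.02, 0.04 and 0.22 for all genes. Slamf6, a receptor of T and NK cells, was at least 18.2-fold and at least 18.6-fold lower in WKY blood RT1B+ and RT1Blow cells, where it was not well above background. In glomerular RT1B+ and RT1Blow cells Slamf9 was 11.2-fold and 16-fold higher than in pan T cells and Slamf1 10.4-fold and 7.21-fold. Slamf9 was 104-fold higher than in pan T cells in the macrophage-labelled arrays, and 3 and 6 of 13 macrophage and monocyte markers were higher in the glomerular RT1B+ and RT1Blow groups, whose part was not tested. Against blood, 3 of the 6 were higher in glomeruli in each gate and 0 lower, where 13.2% and 9.25% of all genes were called. Slamf9 was higher by 21.2-fold and 25.6-fold and Slamf6 by at least 7.81-fold and at least 6.69-fold, whereas Cd244 of the same family had the opposite sign.

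In the macrophage-labelled arrays, 4 of the 26 genes of the ITAM and YINM signalling list were higher and 10 lower than in pan T cells. There 37.4% of all genes were called. The median log2 difference was -0.69 for the list and -0.22 for all genes. Btk, a kinase of B and myeloid cells, was at least 7.87-fold higher, while Pik3cd, a catalytic subunit of phosphoinositide 3-kinase, was 17.6-fold lower. Among receptors and ligands, Trem2 was 66.9-fold, Fcgr1a 35.5-fold and Nectin2, the CD112 ligand of DNAM-1, at least 31.4-fold higher.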
